A study of Mus musculus with 6 samples.

Results

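Cholesterol and fatty acid synthesis was examined in trigeminal ganglia of mice, which hold the sensory neurons of the face and jaw, through 31 genes chosen by name. All 31 had a row among the 13673 protein-coding genes of the deposited table. They comprised 18 enzymes of sterol synthesis, 4 regulators of the pathway and 9 enzymes of fatty acid synthesis. Tissue was taken from wild-type mice on day 3 after an injection of complete Freund's adjuvant (CFA, a mycobacterial oil emulsion that provokes lasting local inflammation), with 3 libraries, and from wild-type mice on day 3 after saline, also with 3 libraries. Strain, sex, age and injection site are not given in the sources used. The labels do not say whether each library came from its own animal, so the p-values cover only the variation from library to library, which may be technical. The samples are whole tissue that the labels describe as neurons and glia, so fewer cells of a type and less RNA per cell cannot be told apart. Values are FPKM (fragments per kilobase of transcript, per library size) with the mean ± SD of 3 libraries per group.

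Sterol synthesis builds isoprenoid units from acetyl-CoA through mevalonate, joins them into squalene, closes the rings to lanosterol and trims lanosterol to cholesterol. Fatty acid synthesis starts from the same acetyl-CoA, which ATP citrate lyase makes from citrate, and adds elongation and desaturation. Both branches are controlled by SREBP transcription factors, which INSIG proteins hold in the endoplasmic reticulum while sterols are plentiful. Myelinating Schwann cells, which are abundant in peripheral ganglia, use both branches to build their membranes.

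For most of these transcripts the means of CFA and saline ganglia lay close together, though 3 libraries per group cannot exclude small changes. None of the 31 genes passed an adjusted p of 0.05 in limma's moderated test over all genes, and the smallest adjusted p was 0.574. The same test called 7 of 12238 genes, or 0.0572%. At an unadjusted p below 0.05 there was 1 member, Hsd17b7, beside 8.32% of all genes tested. The log2 fold change (CFA minus saline, of FPKM + 1, as throughout) had a median of 0.04 over the 31 members and of 0.01 over all genes. Its median size regardless of direction was 0.09 for the members and 0.11 for all genes. For 27 of the 31 members the 95% interval of the fold change, not adjusted for the number of genes, lay wholly within 1.5-fold in either direction, beside 78.6% of all genes. The intervals of the remaining 4, Msmo1, Pmvk, Srebf1 and Fads2, reached beyond 1.5-fold higher.

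The pathway was strongly expressed in both groups. Of the 31 members 11 were among the top 10% of the table's rows by mean FPKM, where the median row had 5.57 FPKM. Scd2, a stearoyl-CoA desaturase that puts a double bond into saturated fatty acids, had the highest level with 299 ± 16.6 FPKM in CFA ganglia and 273.0 ± 10.9 FPKM in saline ganglia. Hmgcs1, which makes HMG-CoA, followed with 171 ± 7.81 FPKM in CFA ganglia and 162 ± 13.5 FPKM in saline ganglia. At the other end stood Lss, which closes squalene epoxide to lanosterol, with 4.12 ± 0.530 FPKM in CFA ganglia and 3.63 ± 0.851 FPKM in saline ganglia. The level of Hmgcs1 was 41.9 ± 4.46 times that of Lss in CFA ganglia and 45.8 ± 7.74 times in saline ganglia. Levels within a branch thus spanned a range far wider than any difference between the groups. Exons of 10 members overlap an exon of another gene, 4 of them on the same strand (Fdps with Gm43738, Tm7sf2 with Vps51, and Srebf1 and Scd2 each with a microRNA), and reads there cannot be assigned with certainty.

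**Figure D1:**
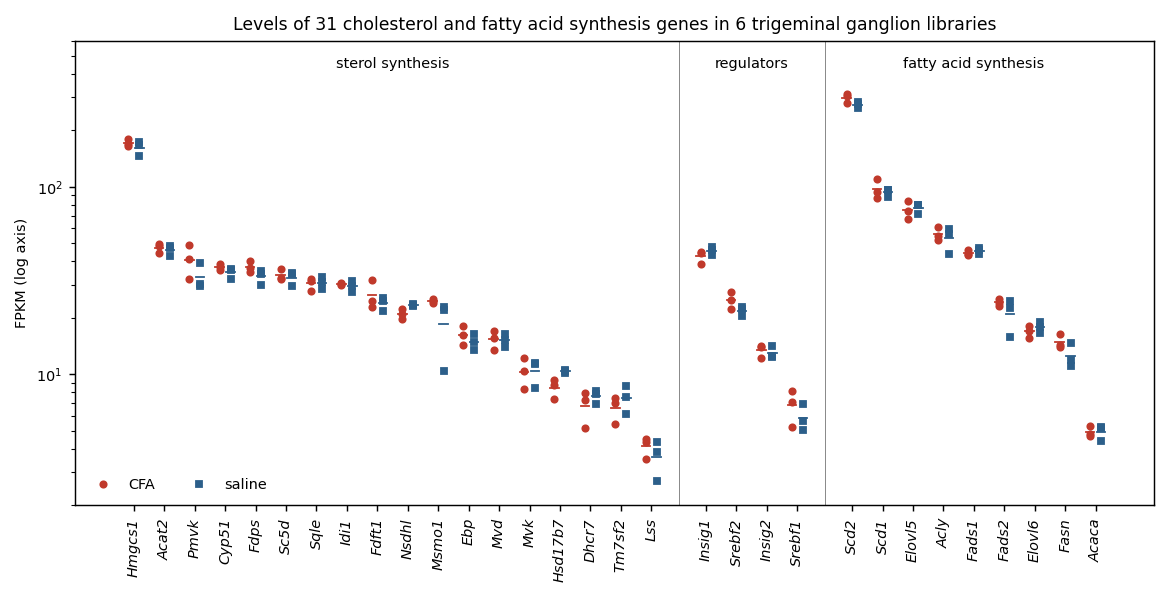
FPKM (log axis) of each of the 31 genes in every library, in order of mean level within sterol synthesis, regulators and fatty acid synthesis; red circles are CFA libraries, blue squares saline libraries, and short lines group means. The groups overlap in 28 genes, and Msmo1 and Fads2 each have a single low saline value.

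Promoter sequence was compared because SREBP factors act at short DNA motifs. RefSeq promoter windows (GRCm38.p6, 250 bases before to 50 after the start) were matched by symbol for 25 of the 31 members and for 10563 genes of the table. Sqle, Fdft1 and Fdps of the sterol branch and Scd1, Scd2 and Fads1 of the fatty acid branch had no window. The motifs searched on both strands were TCACNCCAC for the sterol regulatory element (SRE), its shorter core CACNCCAC, CCAAT for NF-Y and GGGCGG for Sp1. NF-Y and Sp1 are known to assist SREBP at promoters. A CCAAT box was present in 21 of 25 members (84.0%), beside 42.6% of the table's genes with a window and 41.1% of all genes in the promoter set. Among genes with a single window, the shares were 81.0% of 21 members and 38.8% of table genes. GGGCGG was present in 80.0% of members, beside 68.1% of table genes. The SRE letters occurred in 1 member, Hmgcs1, and the shorter core in 3, Hmgcs1, Insig1 and Acat2, beside 1.36% and 7.61% of table genes. By branch, CCAAT was found in 14 of 15 sterol enzymes, 4 of 4 regulators and 3 of 6 fatty acid enzymes. These are matches of letters and not measured binding sites.

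The 6 stretches printed here are the promoters with an SRE core (Hmgcs1, Insig1 and Acat2) and those of the 3 genes whose groups did not overlap (Msmo1, Hsd17b7 and Nsdhl). Each runs from base -170 to base -1 before the RefSeq start, on the gene's own strand, and capitals mark matches to the 4 motifs or their reverse complements. They lie at chr13:119690181-119690350 (plus strand, Hmgcs1), chr5:28071242-28071411 (plus, Insig1), chr17:12960726-12960895 (minus, Acat2), chr8:64733579-64733748 (minus, Msmo1), chr1:169969206-169969375 (minus, Hsd17b7) and chrX:72918351-72918520 (plus, Nsdhl). In Hmgcs1 the SRE match TCACCCCAC begins at base -137, ahead of a reversed CCAAT at base -45. Msmo1 and Hsd17b7 each hold 3 CCAAT boxes in the stretch. The RefSeq starts differ from the annotated gene bounds. By those bounds the Msmo1 stretch lies wholly within its gene, and the stretches of Insig1, Acat2 and Hsd17b7 lie partly within theirs. The SRE core of Insig1 is in the part within the gene.
Hmgcs1: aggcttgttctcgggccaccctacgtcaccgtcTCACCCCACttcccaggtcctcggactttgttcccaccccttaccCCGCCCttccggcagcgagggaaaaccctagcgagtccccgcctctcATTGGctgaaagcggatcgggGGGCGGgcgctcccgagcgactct
Insig1: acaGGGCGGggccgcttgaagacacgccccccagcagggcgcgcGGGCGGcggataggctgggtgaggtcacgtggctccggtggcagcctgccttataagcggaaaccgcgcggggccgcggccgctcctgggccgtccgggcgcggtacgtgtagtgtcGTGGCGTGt
Acat2: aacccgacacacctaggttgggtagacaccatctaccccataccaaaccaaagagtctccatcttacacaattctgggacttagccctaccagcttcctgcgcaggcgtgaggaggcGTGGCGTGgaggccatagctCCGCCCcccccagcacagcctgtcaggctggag
Msmo1: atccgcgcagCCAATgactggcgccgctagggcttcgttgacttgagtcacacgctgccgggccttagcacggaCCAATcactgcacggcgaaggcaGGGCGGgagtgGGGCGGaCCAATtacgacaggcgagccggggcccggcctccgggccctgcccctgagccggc
Hsd17b7: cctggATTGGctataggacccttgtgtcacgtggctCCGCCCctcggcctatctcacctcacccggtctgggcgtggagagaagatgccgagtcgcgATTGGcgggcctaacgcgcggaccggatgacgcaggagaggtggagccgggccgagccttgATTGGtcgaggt
Nsdhl: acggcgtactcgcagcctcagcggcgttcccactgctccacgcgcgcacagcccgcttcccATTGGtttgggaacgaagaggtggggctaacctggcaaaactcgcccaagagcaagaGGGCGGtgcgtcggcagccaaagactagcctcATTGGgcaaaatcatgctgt

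Among the early sterol enzymes, which lead from acetyl-CoA to squalene, no gene had an unadjusted p below 0.05, and the differences of Fdps and Pmvk were larger than the pooled within-group SD. Hmgcs1 had 168, 180.1 and 165 FPKM in CFA replicates 1 to 3, against 166, 172 and 146 FPKM in saline replicates 1 to 3. Its log2 fold change was 0.09 (SE 0.0880, 95% interval -0.13 to 0.30, limma adjusted p = 0.777). The groups overlapped, and the lowest value belonged to saline replicate 3. Acat2, the cytosolic thiolase that supplies Hmgcs1 with acetoacetyl-CoA, averaged 47.2 ± 2.58 FPKM in CFA ganglia and 45.9 ± 2.85 FPKM in saline ganglia. Of its 50-base transcript words 39.1% also occur in Acat3, so reads could be divided between these copies.

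Mevalonate is turned into isoprenoid units by Mvk, Pmvk and Mvd. Pmvk, phosphomevalonate kinase, was the most variable of these, with 41.4, 32.3 and 48.7 FPKM in CFA libraries, against 30.5, 39.3 and 29.6 FPKM in saline libraries. Its log2 fold change of 0.28 (SE 0.174, 95% interval -0.13 to 0.70, limma adjusted p = 0.688) rested on CFA replicates 1 and 3, since CFA replicate 2 lay below saline replicate 2. Mvk averaged 10.3 ± 1.98 FPKM in CFA ganglia and 10.5 ± 1.76 FPKM in saline ganglia, and Mvd 15.4 ± 1.76 FPKM in CFA ganglia and 15.2 ± 1.24 FPKM in saline ganglia. The isomerase Idi1 was among the steadiest members, at 30.3 ± 0.439 FPKM in CFA ganglia and 29.5 ± 2.08 FPKM in saline ganglia. Fdps, which makes farnesyl pyrophosphate, had 36.7, 35.0 and 40.3 FPKM in CFA libraries, against 35.5, 34.2 and 30.1 FPKM in saline libraries (log2 fold change 0.17, SE 0.0924, limma adjusted p = 0.665). Fdft1, squalene synthase, averaged 26.4 ± 4.83 FPKM in CFA ganglia, with CFA replicate 3 highest, and 24.0 ± 1.94 FPKM in saline ganglia.

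At Sqle, Lss and Cyp51, from squalene through lanosterol, the groups likewise overlapped. Sqle, squalene epoxidase and a rate-controlling step of the late pathway, had 27.9, 32.3 and 31.6 FPKM in CFA libraries, against 32.8, 31.1 and 28.5 FPKM in saline libraries. The groups covered the same range, with a log2 fold change of -0.01 (SE 0.0894, 95% interval -0.23 to 0.20, limma adjusted p = 0.980). Lss had a log2 fold change of 0.16 (SE 0.161, 95% interval -0.23 to 0.54, limma adjusted p = 0.773), which ran from 0.004 to 0.27 when 1 library was left out. Cyp51, which demethylates lanosterol, averaged 37.3 ± 1.28 FPKM in CFA ganglia and 34.9 ± 2.22 FPKM in saline ganglia. Its log2 fold change of 0.09 (limma adjusted p = 0.733) was larger than its pooled within-group SD of 0.073.

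The 3 members whose groups did not overlap were Msmo1, Nsdhl and Hsd17b7. Msmo1 was higher in all CFA libraries, as were 7.89% of all genes tested, and Nsdhl and Hsd17b7 were lower, as were 6.66%. Non-overlap in either direction was found in 14.5% of all genes, so 3 of 31 is no more than in the table as a whole. These 3 enzymes are known to act in succession to take methyl groups off the sterol ring after Cyp51, and they were singled out after their values were seen. Their differences did not share a direction.

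Hsd17b7 (ENSMUSG00000026675.12, GRCm38 chr1:169949535-169969241, minus strand) encodes the ketosteroid reductase of that step. It had 8.79, 9.32 and 7.38 FPKM in CFA libraries, against 10.2, 10.5 and 10.4 FPKM in saline libraries. All CFA values lay below all saline values, with CFA replicate 3 lowest. The log2 fold change was -0.26 (SE 0.0972, 95% interval -0.50 to -0.03), with an unadjusted limma p of 0.0314 and an adjusted p of 0.574. Of the 6 fits without a library, 5 had an unadjusted p above 0.05, the highest being 0.0873 without saline replicate 2. The fit without CFA replicate 2 gave 0.0182. The log2 fold change stayed between -0.33 and -0.18 over these 6 fits. Nsdhl (ENSMUSG00000031349.4, chrX:72918557-72958514, plus strand), the sterol dehydrogenase, had 20.9, 22.4 and 19.8 FPKM in CFA libraries, against 23.5, 23.1 and 23.7 FPKM in saline libraries (log2 fold change -0.15, SE 0.0725, limma adjusted p = 0.621). The saline values of both genes were tight and the CFA values more scattered.

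Msmo1 (ENSMUSG00000031604.10, chr8:64718139-64733792, minus strand) encodes the methylsterol monooxygenase. It had 23.9, 25.4 and 24.6 FPKM in CFA libraries, against 10.4, 22.9 and 22.0 FPKM in saline libraries. Saline replicate 1 stood far below the other 5 libraries, which lay close together. The log2 fold change of 0.47 (SE 0.278, limma adjusted p = 0.682) was the highest of the 31 and became 0.13 without saline replicate 1. Erg28, which in yeast is the scaffold of this enzyme group, was in a list of other pathway genes and averaged 6.33 ± 0.252 FPKM in CFA ganglia and 6.75 ± 0.410 FPKM in saline ganglia.

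Of the last enzymes of the sterol branch, Dhcr7 and Tm7sf2 had low levels and wide scatter, while Sc5d had a higher level and less scatter. Dhcr7, which completes cholesterol, had 7.93, 5.18 and 7.28 FPKM in CFA libraries, against 7.89, 8.13 and 6.91 FPKM in saline libraries. Tm7sf2, a sterol reductase, had 7.00, 5.41 and 7.44 FPKM in CFA libraries, against 8.71, 7.60 and 6.11 FPKM in saline libraries. CFA replicate 2 was the lowest library for both, and their groups overlapped (log2 fold changes -0.16 and -0.15, limma adjusted p = 0.760 and 0.775). Exons of Tm7sf2 overlap those of Vps51 on the same strand, so its values may include reads of that gene. Ebp, a sterol isomerase, averaged 16.2 ± 1.89 FPKM in CFA ganglia and 14.9 ± 1.503 FPKM in saline ganglia. Sc5d, a sterol desaturase, averaged 33.8 ± 2.34 FPKM in CFA ganglia and 32.8 ± 2.78 FPKM in saline ganglia.

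Among the regulators, the transcripts of both SREBP genes had higher means and those of Insig1 a lower mean in CFA ganglia, none with an unadjusted p below 0.05. The difference of Srebf2 was larger than its pooled within-group SD, and those of Srebf1 and Insig1 were smaller. Srebf2, whose product drives sterol genes, had 24.8, 22.4 and 27.3 FPKM in CFA libraries, against 22.2, 22.8 and 20.4 FPKM in saline libraries (log2 fold change 0.18, SE 0.0937, 95% interval -0.05 to 0.40, limma adjusted p = 0.651). Srebf1, whose product favours fatty acid genes, had 7.13, 5.22 and 8.16 FPKM in CFA libraries, against 6.94, 5.63 and 5.06 FPKM in saline libraries (log2 fold change 0.18, SE 0.172, limma adjusted p = 0.763). For both genes CFA replicate 3 was highest and CFA replicate 2 fell within the saline range. Insig1, which is itself an SREBP target, had 38.9, 45.0 and 44.5 FPKM in CFA libraries, against 47.6, 43.4 and 45.9 FPKM in saline libraries (log2 fold change -0.09, SE 0.0832, limma adjusted p = 0.754). Insig2 averaged 13.4 ± 1.13 FPKM in CFA ganglia and 13.0 ± 0.923 FPKM in saline ganglia. The level of Srebf2 was 3.71 ± 0.514 times that of Srebf1 in CFA ganglia and 3.76 ± 0.486 times in saline ganglia, a difference smaller than either SD.

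In the fatty acid branch the desaturases and elongases had the same order of mean levels in both groups. In saline replicate 1 alone, Fads2 (15.9 FPKM) lay below Elovl6 (19.0 FPKM). Scd2 had 279.7, 305 and 311 FPKM in CFA libraries, against 275, 283 and 261 FPKM in saline libraries (log2 fold change 0.13, SE 0.0795, 95% interval -0.06 to 0.32, limma adjusted p = 0.694). Scd1, its neighbour on chromosome 19, had 93.4, 110.5 and 86.8 FPKM in CFA libraries, against 88.5, 95.6 and 95.9 FPKM in saline libraries. The level of Scd2 was 3.11 ± 0.426 times that of Scd1 in CFA ganglia and 2.93 ± 0.189 times in saline ganglia. Few of the 50-base words of Scd1 (4.56%) and Scd2 (3.97%) occur in any other gene, so most reads can be told apart.

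Fasn, the fatty acid synthase, had 14.3, 14.1 and 16.4 FPKM in CFA libraries, against 11.99, 14.7 and 11.03 FPKM in saline libraries. Saline replicate 2 lay inside the CFA range, and the log2 fold change of 0.24 (SE 0.120, 95% interval -0.05 to 0.53, limma adjusted p = 0.633) did not pass. Acly, the ATP citrate lyase, averaged 55.8 ± 4.50 FPKM in CFA ganglia and 53.1 ± 8.31 FPKM in saline ganglia. Acaca, the carboxylase that commits acetyl-CoA to fatty acids, averaged 4.93 ± 0.336 FPKM in CFA ganglia and 4.94 ± 0.461 FPKM in saline ganglia. Of its 50-base words 30.4% also occur in other genes, most of them in Gm5182.

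Fads2 and Fads1, the desaturases of polyunsaturated fatty acids, lie near each other on chromosome 19. Fads2 had 25.1, 24.1 and 23.2 FPKM in CFA libraries, against 15.9, 22.6 and 24.4 FPKM in saline libraries. Saline replicate 1 was again low, as for Msmo1, and the log2 fold change of 0.22 (SE 0.155, limma adjusted p = 0.711) became 0.04 without it. Fads1 was the steadiest member by within-group SD and averaged 44.5 ± 1.44 FPKM in CFA ganglia and 45.6 ± 1.76 FPKM in saline ganglia. The elongase Elovl5 averaged 75.3 ± 8.52 FPKM in CFA ganglia and 76.8 ± 4.88 FPKM in saline ganglia. Elovl6, which lengthens palmitate, averaged 16.9 ± 1.28 FPKM in CFA ganglia and 17.8 ± 1.19 FPKM in saline ganglia.

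**Figure D2:**
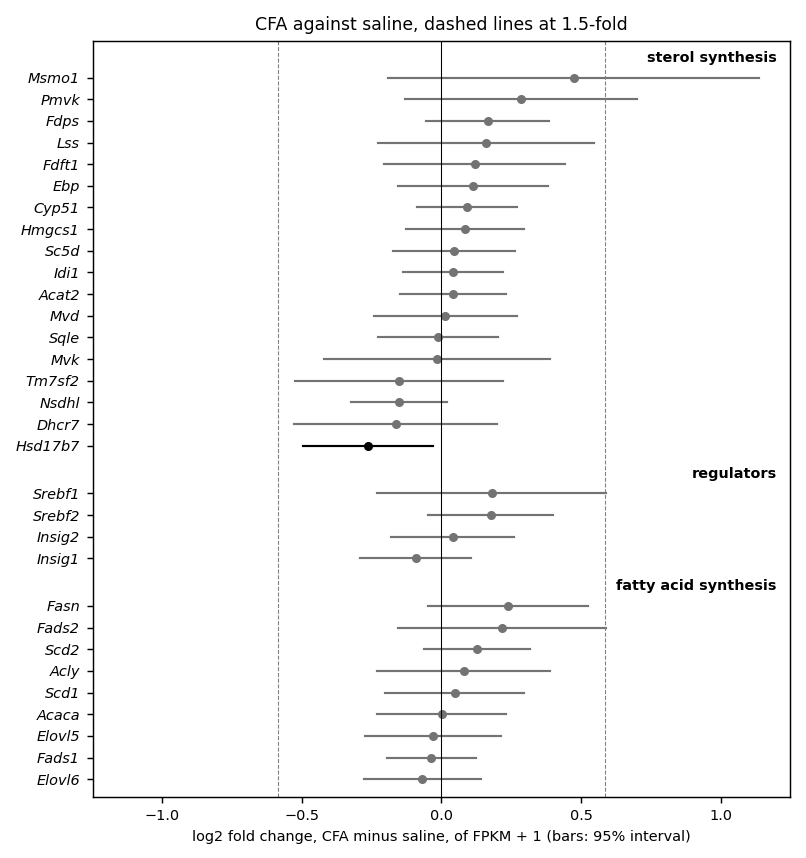
Log2 fold change of each gene (points, CFA minus saline, of FPKM + 1) with its unadjusted 95% interval from limma (bars), sorted within sterol synthesis, regulators and fatty acid synthesis; dashed lines mark 1.5-fold. Hsd17b7, in black, is the gene whose interval leaves out 0, and Msmo1 has the widest interval.

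The sterol and fatty acid branches did not part from each other. In the sterol branch 12 of 18 enzymes had a higher mean under CFA on the log2 scale, with a median log2 fold change of 0.04. In the fatty acid branch 6 of 9 did, with a median of 0.05, beside 51.4% of all genes tested. Averaged over its members, log2(FPKM + 1) of the sterol branch was 4.49, 4.45 and 4.55 in CFA replicates 1 to 3, against 4.43, 4.52 and 4.39 in saline replicates 1 to 3. For the fatty acid branch it was 5.28, 5.38 and 5.26 in CFA libraries, against 5.15, 5.31 and 5.28 in saline libraries. The sterol average minus the fatty acid average was -0.81 ± 0.110 in CFA libraries and -0.80 ± 0.0837 in saline libraries, a difference of -0.02 that is smaller than either SD. Because the members were chosen with results known, no p is given for these averages.

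For 22 of the 31 members the log2 difference between groups was no larger than the pooled within-group SD. It was larger for 9, beside 36.8% of all genes tested. CFA replicate 3 was the highest library for 11 members and CFA replicate 2 for 10, while saline replicate 3 was the lowest for 9 and saline replicate 1 for 8. CFA replicate 2 had the highest fatty acid average of the CFA libraries and the lowest sterol average. The coefficient of variation within a group ran from 1.45% to 37.9%, the upper end being Msmo1 in saline libraries, and was at most 10% in both groups for 15 of the 31 genes. The median within-group SD on the log2 scale was 0.113 for the members and 0.139 for all genes tested.

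**Figure D3:**
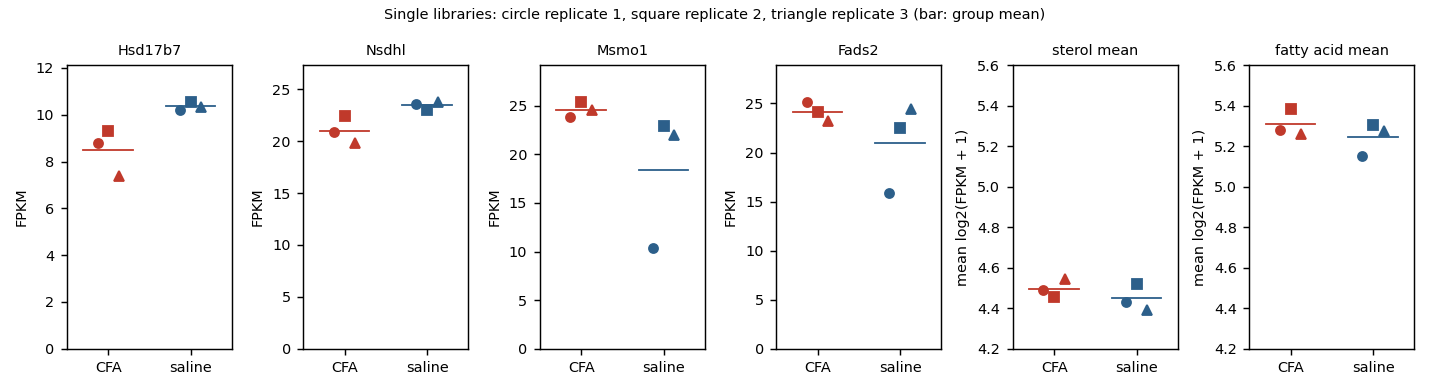
FPKM of Hsd17b7, Nsdhl, Msmo1 and Fads2, and branch averages of log2(FPKM + 1), in each library, with CFA left and saline right; circles, squares and triangles are replicates 1, 2 and 3, and bars are group means. The 3 CFA values of Hsd17b7 lie below the 3 saline values, while saline replicate 1 is the low value for Msmo1 and Fads2; the axes of the branch averages do not start at 0.

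Genes around the pathway were read from 5 lists with 99 names, 89 of them tested, and none passed by limma over all genes (smallest adjusted p = 0.275). At an unadjusted p below 0.05 there were 4 higher and 4 lower, beside 5.37% higher and 2.95% lower over all genes tested. Of 12 other genes of sterol synthesis and SREBP processing none reached that p. Among its genes by smallest p were Ggps1, Lbr and Erg28. Ggps1, which makes geranylgeranyl pyrophosphate, averaged 12.6 ± 1.16 FPKM in CFA ganglia and 15.1 ± 1.93 FPKM in saline ganglia, and the groups overlapped. Lbr, a sterol reductase of the nuclear envelope, averaged 4.68 ± 0.454 FPKM in CFA ganglia and 5.55 ± 0.481 FPKM in saline ganglia.

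For sterol uptake and transport, 17 of 18 listed genes were tested and none had an unadjusted p below 0.05. Npc2, which hands cholesterol out of lysosomes, averaged 23.1 ± 0.678 FPKM in CFA ganglia and 20.7 ± 0.899 FPKM in saline ganglia (log2 fold change 0.15, limma adjusted p = 0.621). For efflux, esters and oxysterols, 13 genes were tested and 1 had such a p, beside 8.32% of all genes tested. This was Cyp27a1, the sterol hydroxylase, at 9.48, 8.68 and 9.82 FPKM in CFA libraries, against 6.56, 6.55 and 8.22 FPKM in saline libraries (log2 fold change 0.35, SE 0.108, limma adjusted p = 0.478). Apoe, the lipid carrier of glia and macrophages, had 652, 573 and 661 FPKM in CFA libraries, against 549.6, 563 and 365 FPKM in saline libraries (log2 fold change 0.38, SE 0.1803, limma adjusted p = 0.621). Both sets of values were without overlap, and saline replicate 3 was lowest for Apoe and highest of the saline libraries for Cyp27a1.

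Among 25 tested genes of other fatty acid steps, 1 had a higher and 1 a lower value with an unadjusted p below 0.05. Over all genes tested 5.37% were higher and 2.95% lower at that p, so this list held about the share of the whole table. Hsd17b12, the ketoacyl reductase of elongation, had 45.0, 54.7 and 44.5 FPKM in CFA libraries, against 45.9, 15.1 and 18.7 FPKM in saline libraries (log2 fold change 0.99, SE 0.381, limma adjusted p = 0.580). Here saline replicate 1 lay within the CFA range, so that the gap ran between 4 libraries and the remaining 2. Hacd2, the dehydratase of elongation, averaged 10.7 ± 0.626 FPKM in CFA ganglia and 12.8 ± 0.729 FPKM in saline ganglia (log2 fold change -0.24, limma adjusted p = 0.557).

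Fatty acid oxidation, the opposing pathway, had 5 of 22 tested genes at an unadjusted p below 0.05, 3 lower and 2 higher, none past the adjusted threshold. Over all genes tested 8.32% had such a p, 2.95% lower and 5.37% higher. Pdk4, a kinase that turns cells from glucose towards fat use, had 5.49, 5.36 and 3.36 FPKM in CFA libraries, against 7.54, 10.1 and 11.7 FPKM in saline libraries (log2 fold change -0.91, SE 0.207, limma adjusted p = 0.275). All CFA values of Pdk4 lay below all saline values. Cpt1a, which admits fatty acids to mitochondria, was also lower, with 29.7 ± 1.97 FPKM in CFA ganglia and 34.2 ± 2.31 FPKM in saline ganglia, and was named after its values were seen. The higher genes were Acads and Echs1, a dehydrogenase and a hydratase of the oxidation cycle. Acads averaged 5.43 ± 0.720 FPKM in CFA ganglia and 3.63 ± 0.604 FPKM in saline ganglia, and Echs1 averaged 6.72 ± 0.506 FPKM in CFA ganglia and 5.58 ± 0.256 FPKM in saline ganglia.

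Markers of cell types, among them cells that make lipid, were compared across the same libraries. All 17 sensory neuron markers were measured, with Nefl, Tubb3 and Prph the highest. The summed FPKM of 20 Schwann cell and myelin markers ran from 4026 to 4761 in CFA libraries and from 3655 to 4885 in saline libraries, with overlap. Of 12 oligodendrocyte markers 12 had a higher mean in CFA libraries, beside 51.4% of all genes tested, and 10 were higher without overlap, beside 7.89%. Their sums were 339 to 412 FPKM in CFA libraries and 225 to 301 FPKM in saline libraries. Satellite glia markers summed to 591 to 646 FPKM in CFA libraries and 490 to 517 FPKM in saline libraries. The list went both ways, with 5 of 9 higher and 4 lower. Fabp7, Gfap, Kcnj10 and Slc1a3 were higher without overlap, 4 of 9 beside 7.89% of all genes tested. Of the lower genes, Glul, Ptprz1 and Epas1 were near 0 (log2 fold change -0.03, -0.03 and -0.04). Without Fabp7 and Gfap the sums of the list overlapped, at 288 to 309 FPKM in CFA libraries and 278 to 323 FPKM in saline libraries. Most of these sums came from Glul, at 207.5 to 214 FPKM in CFA libraries and 197 to 233 FPKM in saline libraries. Cdh19 was lower without overlap (log2 fold change -0.54, limma adjusted p = 0.218). Astrocyte markers summed to 131 to 165 FPKM in CFA libraries and 99.9 to 123 FPKM in saline libraries. Of these 8 markers 8 had a higher mean in CFA libraries, beside 51.4% of all genes tested, and 4 were higher without overlap, beside 7.89%. Saline replicate 1, which was low for Msmo1 and Fads2, had the lowest astrocyte, adipocyte, erythroid and choroid plexus sums. It also had the highest Schwann cell and myelin sum. Of 14 adipocyte markers 9 had a row, and their sums were 22.4 to 23.3 FPKM in CFA libraries and 20.98 to 37.9 FPKM in saline libraries. Macrophage markers summed to 211 to 232 FPKM in CFA libraries and 165 to 512 FPKM in saline libraries, with saline replicate 3 the highest. Its value came from Lyz2, at 396 FPKM. Without Lyz2 the sums were 147 to 158 FPKM in CFA libraries and 107 to 117 FPKM in saline libraries. Of 13 macrophage markers 11 had a higher mean in CFA libraries, beside 51.4% of all genes tested, and 6 were higher without overlap, beside 7.89%. Lyz2 and Cd163 had lower means with overlap (log2 fold changes -0.61 and -0.42, limma adjusted p = 0.809 and 0.580). Sums also differed widely for pituitary markers (312 to 2925 FPKM in CFA and 265 to 4914 FPKM in saline libraries) and skeletal muscle markers (3.38 to 54.0 FPKM in CFA and 6.06 to 201 FPKM in saline libraries), while erythroid sums overlapped (335 to 447 FPKM in CFA and 196 to 416 FPKM in saline libraries). Choroid plexus markers summed to 275 to 360 FPKM in CFA libraries and 77.0 to 81.4 FPKM in saline libraries. Most of that gap was Ttr, at 186 to 258 FPKM in CFA libraries and 1.88 to 2.25 FPKM in saline libraries. Without Ttr the sums were 88.6 to 102 FPKM in CFA libraries and 74.7 to 79.5 FPKM in saline libraries. Enpp2 was also higher without overlap, at 34.9 to 42.2 FPKM in CFA libraries and 20.4 to 25.0 FPKM in saline libraries (log2 fold change 0.73, limma adjusted p = 0.146). Clic6 and Kl, which were too low to be tested, had higher CFA values without overlap, while Aqp1 and Sostdc1 overlapped. The part of these markers in the values of the lipid genes was not tested.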

How the data were processed

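The authors deposited expression values as FPKM per gene for 6 libraries in 1 table, per the file headers. The submitters' processing notes name GRCm38 as the build. RNA was poly(A)-selected and libraries made with a KAPA stranded kit, per the labels. Aligner, quantification tool, annotation release and use of strand are not given in the sources used. In every row the larger group mean was at least 0.501 FPKM, so lower rows were missing, and 1 line had been emptied for this work. FPKM totals ran from 261183 to 275152 and are not depths. A search for whole-read steps gave a strength of at most 0.307, where 1 would mean whole multiples, so depth is unknown and no counting interval is given. The 12238 genes averaging 1 FPKM or more over the libraries, all 31 members included, were compared as log2(FPKM + 1) with limma 3.58.1 in R 4.3.3 (eBayes with trend, two-sided, no covariate), with Benjamini-Hochberg adjustment over all of them. This scale understates changes of low genes. An exact permutation test of 3 against 3 libraries cannot give a p below 0.1 and was not used. The procedure was tested on simulated data. Annotation came from GENCODE M21 (26 of 31 members at identical coordinates) and promoters from RefSeq. Text names all members, up to 4 genes per pathway list by smallest p, and others where stated; some genes of these lists are not reported here. Members and lists were chosen with earlier results of these data known. Alternatives were another pseudocount, other filters and scalings, eBayes robust or without trend, the replicate block and leaving out each library. Figures were drawn with matplotlib 3.10.9.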

Additional observations from a re-analysis of the deposited data

How the results depend on the processing

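No member was called under any of the 15 alternatives by limma. The count of calls over all genes, 7, became 13 with robust variances and 1 under the replicate block. It ran from 5 to 19 when 1 library was left out. Same-numbered libraries correlated at 0.08, 0.11 and -0.05 in their deviations. With 3 libraries per group these values cannot show whether the numbers pair the samples, and the labels do not say. With the replicate block, limma's moderated test again placed 1 member, Hsd17b7, below the unadjusted threshold of 0.05 (limma adjusted p = 0.642). The count of members below that threshold was 1 in every setting that kept all libraries. That count ran from 0 to 4 when 1 library was left out. The 4 were Hsd17b7, Nsdhl, Srebf2 and Pmvk without CFA replicate 2. The median log2 fold change of the fatty acid branch, 0.05, ran from -0.046 (without CFA replicate 2) to 0.097, and that of the sterol branch, 0.04, from 0.011 with quantile normalization to 0.07 without saline replicate 2. The branch difference of -0.02 ran from -0.07 to 0.04. Signs were not stable for members near 0. Acaca was at -0.0061 with median-of-ratios, -0.0004 with quantile and -0.0016 with total scaling. Leaving out 1 library gave ranges of log2 fold change on both sides of 0 for Acaca (-0.066 to 0.036), Sqle (-0.065 to 0.052), Sc5d (-0.025 to 0.084), Scd1 (-0.051 to 0.12), Mvk (-0.15 to 0.12), Mvd (-0.056 to 0.099), Fdft1 (-0.021 to 0.21), Elovl5 (-0.11 to 0.046), Acly (-0.052 to 0.17), Acat2 (-0.010 to 0.084) and Idi1 (-0.0094 to 0.089). The shorter SRE core in place of the longer letters raised the members with a match to 3, from 1. With 3 libraries per group and unknown depth, small changes cannot be told from the spread.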
